A study of Mus musculus with 17 samples.

Results

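The Egr and Nr4a genes are immediate early transcription factor genes, the class that neurons switch on within minutes of activity without needing new protein. All rows of the count table with the symbols Egr1, Egr2, Egr3, Egr4, Nr4a1, Nr4a2 and Nr4a3 were taken, which gave 7 genes, 4 of the Egr family and 3 of the Nr4a family, of 24498 symbols. The rows were picked by gene name, and the families were chosen with earlier results of these data known. Poly(A) RNA of dissected dorsal hippocampus was sequenced in bulk, from WT mice and from mice that lack Acss2 (KO). The Acss2 enzyme turns acetate into acetyl-CoA, the donor for histone acetylation.

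Egr proteins bind GC-rich DNA through zinc fingers, and Egr1, also called Zif268, is widely used as a mark of recently active neurons and is needed for lasting memory. The Nr4a proteins are orphan nuclear receptors, which act without a known hormone and bind the NBRE, a short DNA element. Their genes are induced in the hippocampus after learning and respond to cAMP signalling through CREB, and the Egr genes respond strongly to MAP kinase signalling through serum response factor.

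The mice received an injection into the dorsal hippocampus at 6 months of age, and tissue was taken 6 months later. It held Tau, a pathological protein purified from brains of people with Alzheimer's disease, or PBS, the vehicle. The 17 libraries formed 6 groups by sex, genotype and treatment. Males gave 4 groups of 3 libraries, WT and KO each with PBS or Tau, and females gave WT Tau with 2 libraries and KO Tau with 3. Every female library came from a Tau-injected mouse, so no female comparison of Tau with PBS could be made, and sex cannot be told apart from anything else that differed between the male and the female libraries. A Tau group shares with its PBS group the surgery, and the deletion in KO mice is constitutive, not limited to neurons. The series describes the libraries of a group as biological replicates, and the p-values below measure the spread between these libraries. Libraries are named by the numbers in their labels, such as 791.

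Facts of the whole table bear on the 7 genes as follows. Total counts ran from 14183131 to 22463635 per library, so the upper limit behind a count of 0, which is 3 counts, lay between 0.134 and 0.212 CPM and covers counting error only. CPM is a count scaled to the library's total. No 2 of the 17 libraries held identical counts. Acss2 itself ranged from 44.0 to 54.6 CPM in WT (8 libraries) and from 3.07 to 8.81 CPM in KO (9 libraries), which matched every genotype label. Hippocampal markers were present in every library, with 0 of 6 dentate granule, 0 of 5 CA1 and 0 of 5 CA3 markers at a count of 0. KO libraries 752 (PBS), 712 and 713 (both Tau) stood apart. The summed level of 7 neocortex markers was 991, 758 and 744 CPM there, and between 224 and 472 CPM in the other 9 male libraries. In library 752 the 7 striatal markers also summed to 564 CPM, against 109 to 187 CPM in the other male libraries. In library 713 the 7 choroid plexus markers summed to 4023 CPM. Fits without these 3 libraries were therefore added, and their values stand beside the results that they moved most. Library 711 (KO Tau) differed from the other 11 male libraries in other lists. Its summed levels of astrocyte (3733 CPM), oligodendrocyte (7396 CPM), microglia (511 CPM) and endothelium markers (276 CPM) were the highest of the 12, and that of inhibitory neuron markers, at 577 CPM, was the lowest. In bulk tissue, fewer cells of a type and less RNA per cell cannot be told apart.

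Stretches just upstream of annotated RefSeq start sites (assembly GRCm38.p6) are shown for 5 of the 7 genes, because these families share inducible promoter elements. The table of promoters held a sequence that could be shown for Nr4a1, Nr4a2, Nr4a3, Egr4 and Egr2, and none for Egr3. No stretch is shown for Egr1 either, so the matches below cover neither Egr1 nor Egr3. Bases are written 5′ to 3′ on the gene's own strand. Capitals mark a match on either strand to the core of the cAMP response element (TGACG, or CGTCA on the other strand), to the Egr site GCGNGGGCG or to the CArG box, the element that binds serum response factor. The full cAMP response element TGACGTCA, which would hold a core on each strand, and the NBRE AAAGGTCA were searched as well and matched 0 times in these 5 genes.
Nr4a1 (chr15:101266596-101266845, plus strand): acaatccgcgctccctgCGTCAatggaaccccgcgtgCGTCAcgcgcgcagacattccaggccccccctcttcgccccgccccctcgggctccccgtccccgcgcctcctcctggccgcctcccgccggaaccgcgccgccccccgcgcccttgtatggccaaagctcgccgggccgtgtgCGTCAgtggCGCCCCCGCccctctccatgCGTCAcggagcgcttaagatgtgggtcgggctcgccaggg
Nr4a2 (chr2:57124004-57124253, minus strand): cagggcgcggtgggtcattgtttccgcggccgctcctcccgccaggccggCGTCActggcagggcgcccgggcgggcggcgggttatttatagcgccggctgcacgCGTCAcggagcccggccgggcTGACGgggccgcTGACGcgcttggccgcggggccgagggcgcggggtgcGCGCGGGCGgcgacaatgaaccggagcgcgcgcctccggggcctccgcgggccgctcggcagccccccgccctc
Nr4a3 (chr4:48045055-48045152, plus strand): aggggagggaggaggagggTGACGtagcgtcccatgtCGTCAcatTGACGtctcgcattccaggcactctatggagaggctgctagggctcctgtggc
Egr4 (chr6:85513590-85513839, minus strand): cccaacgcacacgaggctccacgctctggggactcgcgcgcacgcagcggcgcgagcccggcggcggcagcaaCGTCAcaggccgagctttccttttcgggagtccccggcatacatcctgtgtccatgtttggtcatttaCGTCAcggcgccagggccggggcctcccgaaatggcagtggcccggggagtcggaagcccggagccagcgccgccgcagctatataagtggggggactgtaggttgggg
Egr2 (chr10:67537619-67537868, plus strand): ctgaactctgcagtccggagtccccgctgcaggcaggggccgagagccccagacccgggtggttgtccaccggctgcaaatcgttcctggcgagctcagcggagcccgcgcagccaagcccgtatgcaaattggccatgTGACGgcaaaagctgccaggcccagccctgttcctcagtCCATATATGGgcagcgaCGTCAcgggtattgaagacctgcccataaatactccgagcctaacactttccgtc

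The stretch of Nr4a3 stops where an annotated exon begins, 98 bases from its first base, and the other windows shown hold no annotated exon. Over windows of 250 bases before each start, Nr4a1, Nr4a2 and Nr4a3 held 4 cores each, of which 3 are in the shown stretch of Nr4a3. Egr4 held 2 cores, and the shown start of Egr2 held 2 cores with 1 CArG box between them. Of 32851 promoter windows of the same length, 17.8% held at least 1 core and 3.90% held 2 or more. An Egr site was found in Nr4a1 and in Nr4a2, 1 each, and in 4.70% of all windows, and a CArG box in 1.47%. The full cAMP response element was in 1.55% of all windows and the NBRE in 1.34%. RefSeq gave 5 starts for Egr2, and 4 of their windows held 1 CArG box, 3 of them the same element, while 1 window held none of the motifs. A match says only that these letters occur in the window.

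The genes differed widely in level (the plot of levels by group). Per kilobase of exon, the mean over the 17 libraries was 51.7 ± 26.6 CPM per kb for Egr1 (SD), 32.1 ± 10.2 for Egr3, 28.7 ± 11.4 for Nr4a1, 18.7 ± 8.55 for Nr4a2, 18.6 ± 8.24 for Egr4, 15.2 ± 6.04 for Nr4a3 and 1.81 ± 1.34 for Egr2. Egr2 was lowest in 17 of 17 libraries. Egr1 was highest in 12 libraries and Egr3 in the other 5, which were 4 of the 5 female libraries (314, 325, 331, 341) and male library 711. Egr3 was above Nr4a1 in 11 of 17 libraries, Nr4a1 above Nr4a2 in 14, Nr4a2 above Egr4 in 9 and Egr4 above Nr4a3 in 9, so that Nr4a2, Egr4 and Nr4a3 could not be put in a stable order. With the length of the longest transcript in place of the union of exons, Nr4a1 came before Egr3 and the other ranks stayed.

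**Figure D1:**
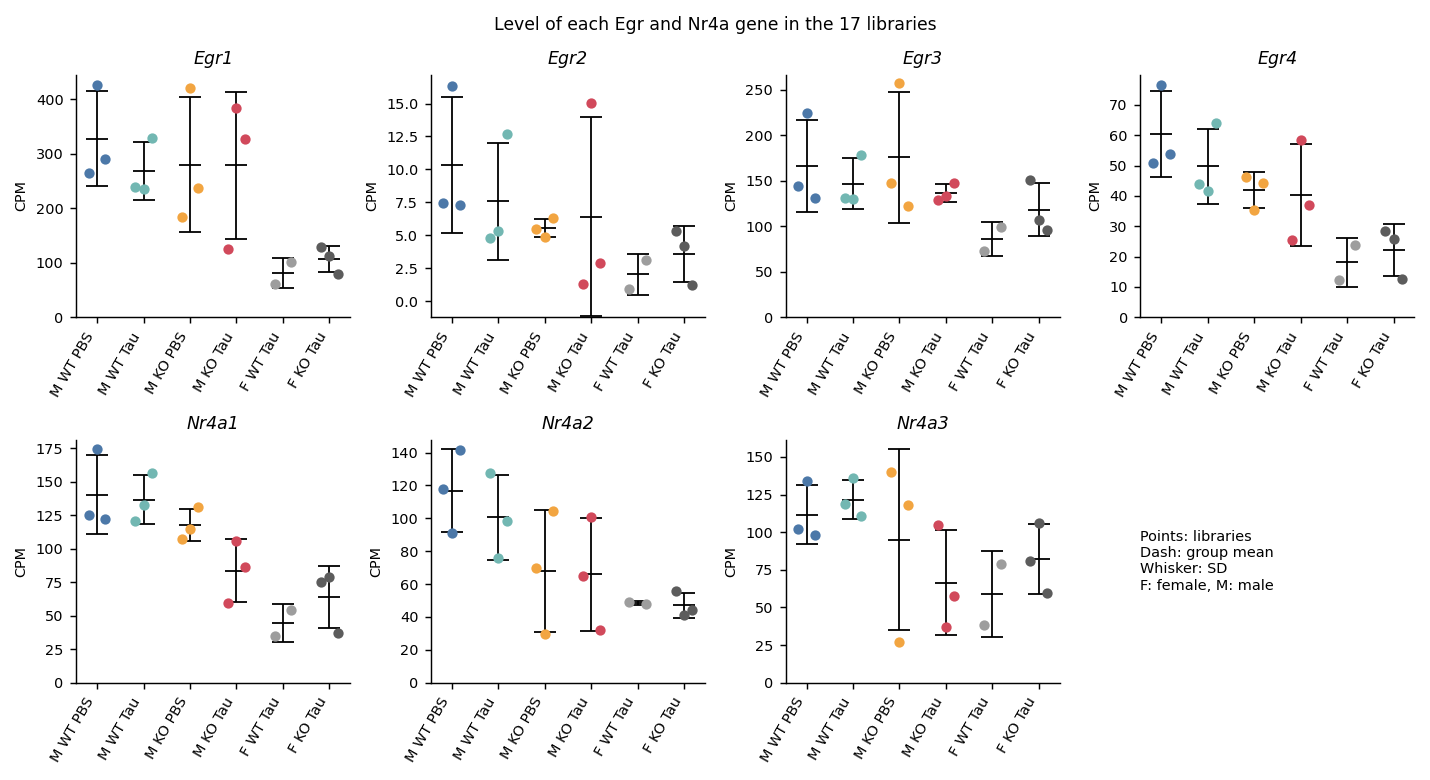
Level of each gene in CPM (vertical axis) in the 17 libraries, by group on the horizontal axis (M male, F female). Points are libraries, the dash is the group mean and whiskers are the SD; for Egr2 in male KO Tau the SD (7.52) exceeds the mean (6.42). The 2 female WT Tau libraries lie below the 3 male WT Tau libraries in all 7 panels, and the male KO groups spread more widely than the male WT groups for Egr1, Nr4a2 and Nr4a3.

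Egr1 (chromosome 18, 34859823 to 34864984, plus strand, GRCm38, protein-coding), a transcription factor long tied to memory storage, was at 265, 426 and 291 CPM in male WT PBS libraries 791, 792 and 793. In male WT Tau it was at 239, 236 and 329 CPM (771, 772, 773). Male KO PBS gave 184, 419.6 and 236 CPM (751, 752, 753) and male KO Tau 125, 383 and 326 CPM (711, 712, 713). Libraries 752, 712 and 713, which hold the most neocortex marker RNA, were above the other libraries of their groups for Egr1, and the 4 male groups overlapped in every pair. Female WT Tau libraries 331 and 341 were at 62.0 and 101 CPM and female KO Tau libraries 314, 324 and 325 at 128, 112 and 80.0 CPM. Of the 12 male libraries only 711, at 125 CPM, came below the highest female library.

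Egr2 (chromosome 10, 67535475 to 67542188, plus strand), also called Krox20 and best known from myelinating Schwann cells and hindbrain development, was the least abundant member. Its counts per library ran from 16 to 316, so counting error is a larger share of its spread than for the others. It was at 7.45, 16.3 and 7.28 CPM in male WT PBS (791, 792, 793) and at 4.77, 5.31 and 12.7 CPM in male WT Tau (771, 772, 773). Male KO PBS gave 5.48, 4.90 and 6.32 CPM (751, 752, 753), all below the 3 WT PBS libraries. Male KO Tau gave 1.32, 15.1 and 2.87 CPM (711, 712, 713), so that library 712 alone was above every library of the KO PBS group and the other two were below all of them. The female libraries were at 0.926 and 3.16 CPM in WT Tau (331, 341) and at 5.36, 4.17 and 1.24 CPM in KO Tau (314, 324, 325).

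Egr3 (chromosome 14, 70077203 to 70082614, plus strand), which acts downstream of synaptic activity and regulates Arc, was at 144, 225 and 131 CPM in male WT PBS (791, 792, 793) and at 131, 130.2 and 179 CPM in male WT Tau (771, 772, 773). Male KO PBS gave 148, 257 and 123 CPM (751, 752, 753), and male KO Tau 129, 133 and 147 CPM (711, 712, 713). The highest of all was KO PBS library 752, and the 3 KO Tau libraries were close together. Female WT Tau gave 73.1 and 99.4 CPM (331, 341) and female KO Tau 151, 108 and 96.0 CPM (314, 324, 325).

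Egr4 (chromosome 6, 85511121 to 85513589, minus strand), a less studied member of the family, was at 50.7, 76.6 and 53.9 CPM in male WT PBS (791, 792, 793) and at 43.9, 41.5 and 64.0 CPM in male WT Tau (771, 772, 773). Male KO PBS was at 46.3, 35.2 and 44.2 CPM (751, 752, 753), below all 3 WT PBS libraries. Male KO Tau was at 25.4, 58.4 and 37.0 CPM (711, 712, 713). Library 711 was below every other male library, and 712 and 713 lay within the range of the other male groups. The female libraries gave 12.3 and 23.9 CPM in WT Tau (331, 341) and 28.3, 25.8 and 12.5 CPM in KO Tau (314, 324, 325). Among the male libraries only 711 was below the highest female library.

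Nr4a1 (chromosome 15, 101254269 to 101274795, plus strand), also called Nur77, showed the least spread within male groups of the 7 genes. It was at 125, 174 and 122 CPM in male WT PBS (791, 792, 793) and at 121, 133 and 156 CPM in male WT Tau (771, 772, 773). Male KO PBS gave 107, 115 and 131 CPM (751, 752, 753). The 3 male KO Tau libraries, at 59.2, 106 and 85.9 CPM (711, 712, 713), lay below all 9 libraries of the other male groups, although 712 was close to KO PBS library 751. The female WT Tau libraries were at 34.5 and 54.3 CPM (331, 341) and the female KO Tau libraries at 75.4, 78.5 and 36.9 CPM (314, 324, 325).

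Nr4a2 (chromosome 2, 57106830 to 57124003, minus strand), also called Nurr1 and essential for midbrain dopamine neurons, was at 118, 91.1 and 142 CPM in male WT PBS (791, 792, 793) and at 128, 75.9 and 98.7 CPM in male WT Tau (771, 772, 773). Male KO PBS gave 69.8, 29.6 and 104 CPM (751, 752, 753) and male KO Tau 65.0, 101 and 31.8 CPM (711, 712, 713). Libraries 752 and 713 were the lowest of the 17, and the KO and WT ranges overlapped. The females were close together, at 49.3 and 47.7 CPM in WT Tau (331, 341) and at 55.7, 40.9 and 44.5 CPM in KO Tau (314, 324, 325).

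Nr4a3 (chromosome 4, 48045153 to 48086447, plus strand), also called Nor1, was at 102, 134 and 98.4 CPM in male WT PBS (791, 792, 793) and at 119, 136 and 111 CPM in male WT Tau (771, 772, 773). Male KO PBS gave 140.1, 27.1 and 118 CPM (751, 752, 753), and male KO Tau 105, 36.8 and 57.3 CPM (711, 712, 713). Libraries 752, 712 and 713 were thus the 3 lowest male libraries, and the other 3 male KO libraries lay within the WT range or above it. In females it was at 38.6 and 78.9 CPM in WT Tau (331, 341) and at 80.5, 106 and 59.6 CPM in KO Tau (314, 324, 325).

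Spread within groups was larger for most members than for a typical gene. The SD of log2 CPM within the 4 male groups was 1.01 for Egr2, 0.77 for Nr4a3, 0.67 for Nr4a2, 0.58 for Egr1, 0.40 for Egr4, 0.38 for Egr3 and 0.28 for Nr4a1, and the median of 15473 genes was 0.20. Egr2 was at the 98.3th percentile of genes, Nr4a3 at the 95.9th and Nr4a1 at the 66.3th. Nr4a3 had an SD of 0.21 within the WT groups and of 1.07 within the KO groups, and Egr1 of 0.34 and 0.75. Over all genes the same medians were 0.12 and 0.24. Which library was high or low was shared among several members. Library 792 was the highest of its group for 6 of 7 genes, all but Nr4a2, and library 773 for all 4 Egr genes and Nr4a1. Library 711 was the lowest of its group for the same 5 genes.

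The first comparison asked what Tau did in WT males. Egr1 averaged 268 ± 52.7 CPM after Tau and 327 ± 86.7 CPM after PBS (SD, n = 3 each), a log2 fold change of -0.31 (SE 0.39). The largest difference was that of Egr2, -0.46 (SE 0.69), and the smallest that of Nr4a1, -0.055 (SE 0.20). In all, 6 of the 7 genes had a value below 0, and Nr4a3 was at 0.11 (SE 0.49). By the edgeR quasi-likelihood test with Benjamini-Hochberg adjustment, 0 of 7 members were called at an FDR of 0.05, and 0% of 15098 genes. At an unadjusted p under 0.05 there were 0 members, against 1.86% of all genes. By DESeq2 and by voom 0 members were called. In 0 of 7 members did the groups not overlap (12.2% of all genes).

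Without Tau, the Acss2 deletion was set against WT in the PBS groups. Nr4a2 averaged 67.9 ± 37.3 CPM in KO and 117 ± 25.3 CPM in WT (SD, n = 3 each; log2 fold change -0.73, SE 0.44), and the value was -0.38 (SE 0.23) without libraries 752, 712 and 713. For Egr4 the means were 41.9 ± 5.88 and 60.4 ± 14.1 CPM (-0.48, SE 0.28). Egr2 had -0.85 (SE 0.70) and Nr4a1 -0.21 (SE 0.20), and only Egr3 had a value above 0 (0.13, SE 0.27), which turned to -0.084 by voom and -0.26 without libraries 752, 712 and 713. For Egr2 and Egr4, 2 of 7 members, the KO libraries lay below all WT libraries (11.7% of all genes were apart in either direction). edgeR called 0 of 7 members and 0.00662% of genes, with 0 members at an unadjusted p under 0.05 (4.42% of genes). Neither of the other tools, DESeq2 and voom, called any.

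KO males with Tau were compared with WT males with PBS, and here each of the 7 members had a log2 fold change below 0, with a median of -0.69 against -0.00320 over all genes. Several members share their high and low libraries, so a shared sign of the 7 values is not 7 independent readings, here and below. Nr4a1 averaged 83.6 ± 23.3 CPM in KO Tau and 140.3 ± 29.2 CPM in WT PBS (SD, n = 3 each), a log2 fold change of -0.74 (SE 0.20, unadjusted p 0.00354, edgeR FDR 0.783), and its groups did not overlap. Nr4a2 had -0.82 (SE 0.44), Nr4a3 -0.74 (SE 0.49), Egr2 -0.69 (SE 0.70), Egr4 -0.58 (SE 0.28), Egr3 -0.28 (SE 0.28) and Egr1 -0.23 (SE 0.39). By voom with quality weights Egr1 was at 0.015. edgeR called 0 of 7 members, as it did 0.00662% of genes, and Nr4a1 was the 1 member at an unadjusted p under 0.05, against 6.33% of genes. DESeq2 and voom on the same libraries called 0 members. Nr4a1 was also the 1 member whose groups did not overlap, against 14.4% of genes.

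KO Tau males were also set against WT Tau males, which compares the genotypes under Tau. The neocortex markers summed to 224, 758 and 744 CPM in KO Tau libraries 711, 712 and 713 and to between 301 and 472 CPM in WT Tau. The part of this difference in the members' values was not tested. Nr4a1 was at 83.6 ± 23.3 CPM in KO Tau and at 137 ± 18.3 CPM in WT Tau (log2 fold change -0.69, SE 0.20, unadjusted p 0.00571, edgeR FDR 0.927). The means of Nr4a3 were 66.3 ± 34.9 and 122 ± 12.9 CPM (-0.85, SE 0.49). This value came down to -0.18 (SE 0.19) without libraries 752, 712 and 713, which leaves library 711 alone as KO Tau. Adjusted for the dentate granule score, the value was -0.43 (SE 0.22). Nr4a1 and Nr4a3 were the 2 members whose groups did not overlap (12.6% of genes). The third receptor gene, Nr4a2, had -0.59 (SE 0.44), and the 4 Egr genes lay between -0.29 and 0.073, with SEs from 0.28 to 0.70. By edgeR, 0 of 7 members were called and 0.00662% of genes, and 1 member against 4.71% of genes reached an unadjusted p under 0.05. Again 0 were called by DESeq2 and by voom.

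These comparisons depended on which KO Tau libraries were included. With DESeq2 on only the groups compared, 0 members were called with all libraries. Without library 711, Nr4a1 was called at -0.55 (DESeq2 adjusted p 0.0255) and Nr4a3 at -1.24 (0.00239) against WT PBS, beside 7.30% of genes. In the same setting Nr4a1 was called at -0.50 (0.00918) and Nr4a3 at -1.35 (1.71e-11) against WT Tau, beside 9.25% of genes. Without library 712, the calls were Egr2 at -2.28 (0.00328), Nr4a1 at -0.93 (0.0447) and Nr4a2 at -1.25 (0.0362) against WT PBS, with 0.342% of genes, and Nr4a1 at -0.88 (0.0417) against WT Tau, with 0.0778% of genes. No member was called in the other 8 of the 12 such fits, which left out library 713 or a WT library, so Nr4a1 was called in 4 of 12. edgeR on all 12 male libraries less 1 called 0 members in both comparisons, whichever library was left out.

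With libraries 752, 712 and 713 left out, a choice made after the data were seen, KO Tau is library 711 alone, and its spread is assumed to be that of the other groups. edgeR then called Egr1 at -1.36 (SE 0.29, FDR 0.0149), Egr2 at -2.94 (SE 0.77, FDR 0.0306), Egr4 at -1.22 (SE 0.29, FDR 0.0216) and Nr4a1 at -1.22 (SE 0.23, FDR 0.00920) against WT PBS, 4 of 7 members beside 14.7% of genes. Nr4a3 was then at -0.063 (SE 0.19). Against WT Tau it called Egr1 and Nr4a1 (8.53% of genes) and against KO PBS Nr4a1 (11.2%). Library 711 had the highest summed level of 6 nuclear-retained RNAs among male libraries, 6464 CPM against 2419 to 5160 CPM, and the lowest neocortex sum, 224 CPM. Its astrocyte sum of 3733 CPM stood against 1810 to 2597 CPM in the other male libraries, its oligodendrocyte sum of 7396 CPM against 2921 to 5715 CPM, and its inhibitory neuron sum of 577 CPM against 772 to 1099 CPM. The part of these differences in the calls was not tested.

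Within the KO males, Tau was set against PBS. Nr4a1 averaged 83.6 ± 23.3 CPM after Tau and 117 ± 12.1 CPM after PBS (SD, n = 3 each), a log2 fold change of -0.54 (SE 0.20, unadjusted p 0.0220, edgeR FDR 0.570), with all 3 Tau libraries below all 3 PBS libraries. No other member was apart (1 of 7, and 9.01% of genes). Nr4a3 had -0.57 (SE 0.49) and Egr3 -0.41 (SE 0.28), and Egr1, Egr2, Egr4 and Nr4a2 were between -0.11 and 0.16. edgeR called 0 of 7 members and 0% of genes, and 1 member was at an unadjusted p under 0.05, against 7.95% of genes. DESeq2 and voom called 0. These male comparisons share the same 4 groups of libraries and are not independent of each other.

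Averaged over both treatments, KO males had Nr4a2 at -0.66 (SE 0.31) and Nr4a1 at -0.45 (SE 0.14, unadjusted p 0.00918, edgeR FDR 0.945) relative to WT. That made 1 of 7 members at an unadjusted p under 0.05 (4.58% of genes), and 0 called (0.00662% of genes). Averaged over both genotypes, Tau gave -0.30 (SE 0.14) for Nr4a1 and -0.31 (SE 0.19) for Egr3, with 0 members called (0% of genes) and 0 at an unadjusted p under 0.05 (5.38%). Without libraries 752, 712 and 713, edgeR called Egr1 and Nr4a1 in the first average (6.34% of genes) and Nr4a1 in the second (7.15%). The interaction, whether the Tau effect differed between genotypes, was -0.48 (SE 0.29) for Nr4a1 and -0.67 (SE 0.69) for Nr4a3 (-0.97, SE 0.28, and -0.43, SE 0.24, without the 3 libraries), with 0 members called (0% of genes) and 0 at an unadjusted p under 0.05 (4.18%). In these 3 comparisons 0 members were called by DESeq2 or voom.

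**Figure D2:**
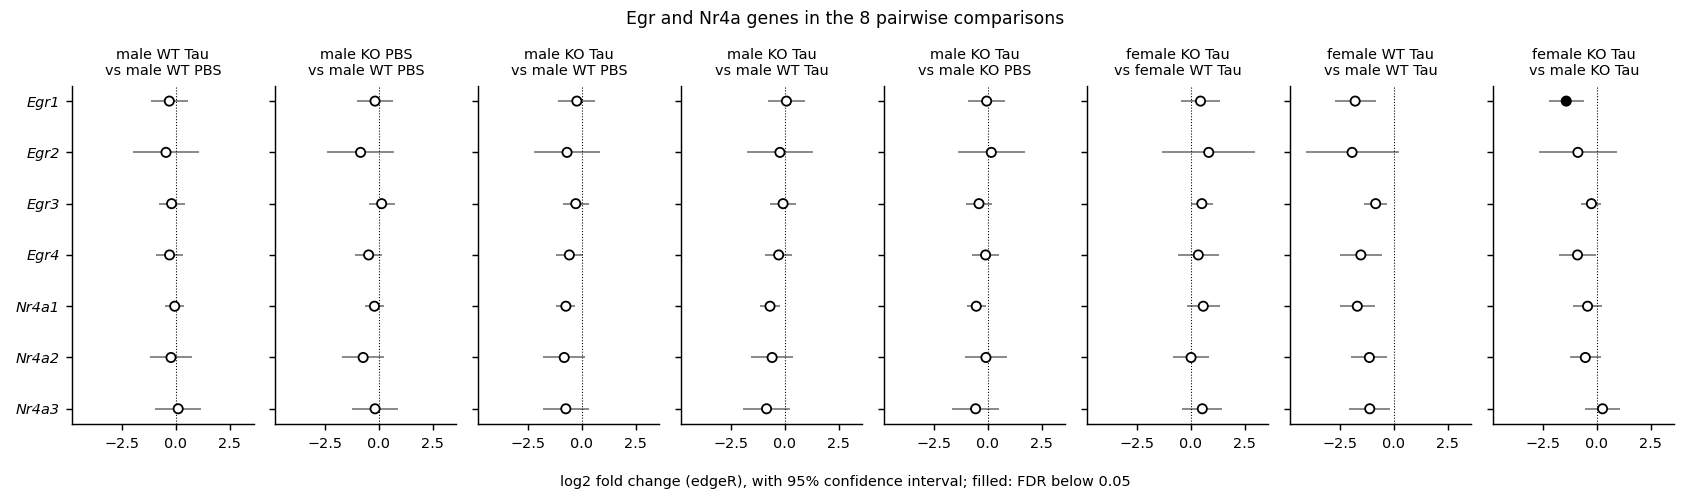
Log2 fold change of each gene (horizontal axis, edgeR) with its 95% confidence interval from the edgeR test, unadjusted, in the 8 pairwise comparisons, 1 panel each. The filled point, Egr1 at -1.42 in female KO Tau against male KO Tau, is the 1 member call by edgeR; open points did not pass the FDR of 0.05, and in the 5 male panels the intervals that leave out 0 are those of Nr4a1 in the 3 comparisons of male KO Tau.

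In females under Tau, the 7 members had log2 fold changes above 0 in KO relative to WT, with a median of 0.51 against -0.010 over all genes. Nr4a1 averaged 63.6 ± 23.2 CPM in KO (SD, n = 3) and 44.4 ± 14.0 CPM in WT (n = 2), a log2 fold change of 0.58 (SE 0.35), and Egr3 118 ± 29.1 and 86.3 ± 18.7 CPM (0.51, SE 0.24). Egr2 had 0.83 (SE 0.99), Nr4a3 0.53 (SE 0.42), Egr1 0.45 (SE 0.41), Egr4 0.35 (SE 0.44) and Nr4a2 0.011 (SE 0.37). The libraries overlapped for each gene (0 of 7 apart, against 16.0% of genes). edgeR called 0 of 7 members and 0.00649% of genes, with 0 members at an unadjusted p under 0.05 (2.89%). Neither DESeq2 nor voom called a member. WT library 331 was the lower of its pair for 6 genes and KO library 325 the lowest of its group for 6 genes, in both cases all but Nr4a2. The 5 CA1 markers and 6 nuclear-retained RNAs all had values above 0 in KO (medians 0.32 and 0.46), and the 6 oligodendrocyte (-0.48), 6 dentate granule (-0.42) and 5 astrocyte markers (-0.26) all had values below 0. Library 331 had the highest oligodendrocyte sum of the 17 libraries, 11574 CPM, and the lowest CA1 sum, 676 CPM. Their part in the members' values was not tested. With the dentate granule score as a covariate, Egr2 moved to -0.24, Egr4 to -0.078 and Nr4a2 to -0.096, and their direction in females is therefore not settled.

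Whether the genotype effect under Tau differed between the sexes was tested as an interaction, and all 7 estimates were above 0. Nr4a3 had 1.38 (SE 0.57, unadjusted p 0.0325, edgeR FDR 0.978), which was 0.69 (SE 0.52) without libraries 712 and 713, and Nr4a1 1.27 (SE 0.47, unadjusted p 0.0201, edgeR FDR 0.978), which was 1.73 (SE 0.56) without them. They were 2 of 7 members at an unadjusted p under 0.05, against 2.94% of genes. edgeR called 0 members and 0% of genes, and DESeq2 and voom 0 members. For Nr4a1 the estimate from all libraries combined -0.69 in males with 0.58 in females. The values without libraries 712 and 713 rest on library 711 alone as male KO Tau.

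The largest differences lay between female and male Tau libraries. In WT, each of the 7 genes was lower in both female libraries than in all 3 male libraries, 7 of 7 members apart where 49.9% of genes were. Egr1 averaged 81.3 ± 27.3 CPM in female WT Tau (SD, n = 2) and 268 ± 52.7 CPM in male WT Tau (n = 3), which is -1.79 on the log2 scale (SE 0.43, edgeR FDR 0.0987). Nr4a1 was at 44.4 ± 14.0 and 137 ± 18.3 CPM (-1.69, SE 0.36, FDR 0.0819). Egr2 had -1.94 (SE 0.98), Egr4 -1.53 (SE 0.45), Nr4a2 -1.13 (SE 0.38), Nr4a3 -1.12 (SE 0.43) and Egr3 -0.84 (SE 0.24). The median was -1.53, and -0.015 over all genes.

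Whether these WT differences passed depended on the tool. edgeR called 0 of 7 members and 0.370% of genes, and 6 members, all but Egr2, had an unadjusted p under 0.05, against 22.9% of genes. DESeq2 called 5 members, Egr1, Egr3, Egr4, Nr4a1 and Nr4a2, beside 5.56% of genes, and voom called Egr1 and Nr4a1, beside 3.84%. On only the groups compared, DESeq2 called 6 members (14.5% of genes) and edgeR 5 (7.35%). edgeR called 2 members with all libraries in 1 fit (3.78%) and 3 with the dentate granule score as a covariate (2.72%). Without libraries 712 and 713 (752 is no Tau library), edgeR called Egr1, Nr4a1 and Nr4a2 (4.18% of genes). Leaving out single libraries, edgeR called Egr1, Egr4 and Nr4a1 without 711 (7.95% of genes), Nr4a1 without 325 (0.487%) and 0 members without any other library. Cell type markers differed between the same libraries. The 5 astrocyte markers summed to 5402 and 5625 CPM in female WT Tau, the lowest and highest, against 2288 to 2572 CPM in male WT Tau, and the 7 neocortex markers to 257 and 258 CPM against 301 to 472 CPM. The 5 CA1 markers summed to 676 and 1003 CPM against 1289 to 1387 CPM. For the 6 inhibitory neuron markers the sums were 608 and 638 CPM against 818 to 915 CPM. Sums of thalamus, endothelium, microglia and oligodendrocyte markers were higher in both female libraries than in every male WT Tau library. The part of these differences in the members' values was not tested.

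In KO, Egr1 averaged 107 ± 24.6 CPM in female KO Tau and 278 ± 136 CPM in male KO Tau (SD, n = 3 each). This difference, -1.42 on the log2 scale (SE 0.37, edgeR FDR 0.0478), was the 1 member call of 7, beside 6.33% of genes, and DESeq2 (14.5% of genes) and voom (37.5%) called it as well. The groups overlapped nevertheless, since male library 711 was at 125 CPM and female library 314 at 128 CPM. The call did not hold by edgeR on only the groups compared (FDR 0.158) or without any 1 of 10 of the 11 libraries (FDR 0.0525 or above), and it held without library 711 (-1.74, FDR 0.00147, beside 32.1% of genes) and with the dentate granule score as a covariate (-1.14, FDR 0.0298, beside 8.82%). Without libraries 712 and 713, which leaves library 711 alone as male KO Tau, the value was -0.28 (SE 0.35). The neocortex markers summed to 205 to 369.7 CPM in the females and to 224, 758 and 744 CPM in male libraries 711, 712 and 713. Egr4 had -0.90 (SE 0.39; -0.25, SE 0.49, without libraries 712 and 713) and Nr4a3 0.27 (SE 0.37), and the others lay between. In this comparison 2 members, Egr1 and Egr4, were at an unadjusted p under 0.05 (29.5% of genes), and 0 of 7 were apart (24.7%). The female comparisons use the same Tau libraries as each other.

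Members were next related to each other across libraries (the heat maps of correlations). Because the sexes differ in level and libraries 752, 712 and 713 stand apart, r was taken in the 9 other male libraries. This choice was made after the data were seen. The values used were log2 CPM, with two-sided exact permutation tests adjusted over 21 pairs. Egr1, Egr2, Egr4 and Nr4a1 formed a set in which all 6 pairs passed, with Pearson r from 0.91 for Egr4 and Nr4a1 (adjusted exact p 0.00874, Spearman rho 0.63) to 0.99 for Egr2 and Egr4 (adjusted exact p 0.00127, rho 0.95). For the 3 pairs with Nr4a1, rho did not pass (adjusted exact p from 0.0723 to 0.228). Leaving out the 2 libraries farthest from the median, 711 and 792, brought r to 0.93 for Egr2 and Egr4 and to 0.53 for Egr4 and Nr4a1, so the latter relation rests in large part on these 2 libraries. Of the other 15 pairs 0 passed, and the set was picked from these same correlations. Nr4a2 and Nr4a3, of the same family, had an r of -0.53 (exact p 0.143).

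**Figure D3:**
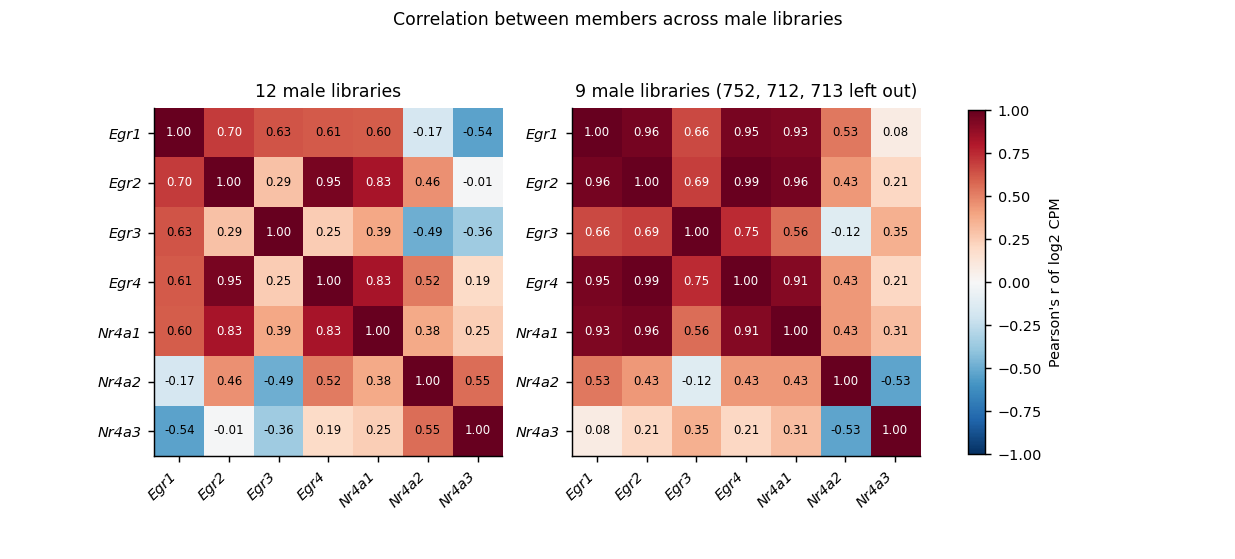
Pearson's r of log2 CPM between each pair of members (colour and printed value) over the 12 male libraries, left, and over the 9 left without libraries 752, 712 and 713, right. Egr1, Egr2, Egr4 and Nr4a1 form a block with r from 0.91 to 0.99 on the right; Egr1 and Nr4a3 have -0.54 on the left and 0.085 on the right.

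Over all 12 male libraries 3 of 21 pairs passed by r, namely Egr2 with Egr4 (0.95), Egr2 with Nr4a1 (0.83) and Egr4 with Nr4a1 (0.83). By rho the pairs with Nr4a1 did not pass there (0.63 and 0.60, adjusted permutation p 0.226 each). No pair with Egr1 passed over these 12 libraries, by r or by rho. Deviations from group means in all 17 libraries gave 6 of 21 pairs by r, and there Nr4a1 passed by rho with Egr1 (0.70, adjusted permutation p 0.0233), Egr2 (0.88, 0.0147) and Egr4 (0.88, 0.0219). The 17 libraries without centring gave 14 of 21, where the difference between the sexes enters. Egr1 and Nr4a3 had r of -0.54 over the 12 libraries and 0.085 over the 9, and neither value passed; without libraries 711 and 792 the latter was -0.78, so it rests on those libraries.

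Levels were also set beside marker scores, each the mean log2 CPM of a marker list, a relation looked at after the values were seen (the plot of Nr4a3 and Egr1 against marker scores). In the 9 male libraries Egr1 followed the neocortex score, with r 0.91 and rho 0.98 (exact permutation p 8.27e-06 and 4.96e-05, adjusted over 14 relations 0.000116 and 0.000694). Without libraries 711 and 773 its r was 0.84. Egr2 had r 0.84 (adjusted exact p 0.00345, rho 0.90, r 0.71 without 711 and 773) and Egr4 r 0.84 (adjusted exact p 0.00621, rho 0.88, r 0.68 without them). Nr4a1 had r 0.76 (adjusted exact p 0.0184) and did not pass by rho (0.78, adjusted exact p 0.0603), and its r was 0.53 without the same libraries. Libraries 752, 712 and 713 had the highest neocortex scores, 6.82, 6.57 and 6.48 against 4.88 to 5.90, and Egr1 at 419.6, 383 and 326 CPM. Nr4a3 had the opposite course in these 3 libraries, where the dentate granule scores were the lowest of the male libraries, 2.81, 3.64 and 4.23 against 4.43 to 5.97. Over all 12 male libraries Nr4a3 had r 0.92 with the dentate granule score (adjusted permutation p 0.00112), and 0.68 without libraries 712 and 752. With the neocortex score its r was -0.85 (adjusted permutation p 0.00159). By rho neither relation passed (0.69 and -0.68, adjusted permutation p 0.0639 each). Among the 9 male libraries left without 752, 712 and 713, Nr4a3 had r 0.40 with the dentate granule score (exact p 0.288), and no relation was shown. The part of tissue makeup in the group differences was not tested beyond the values given.

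**Figure D4:**
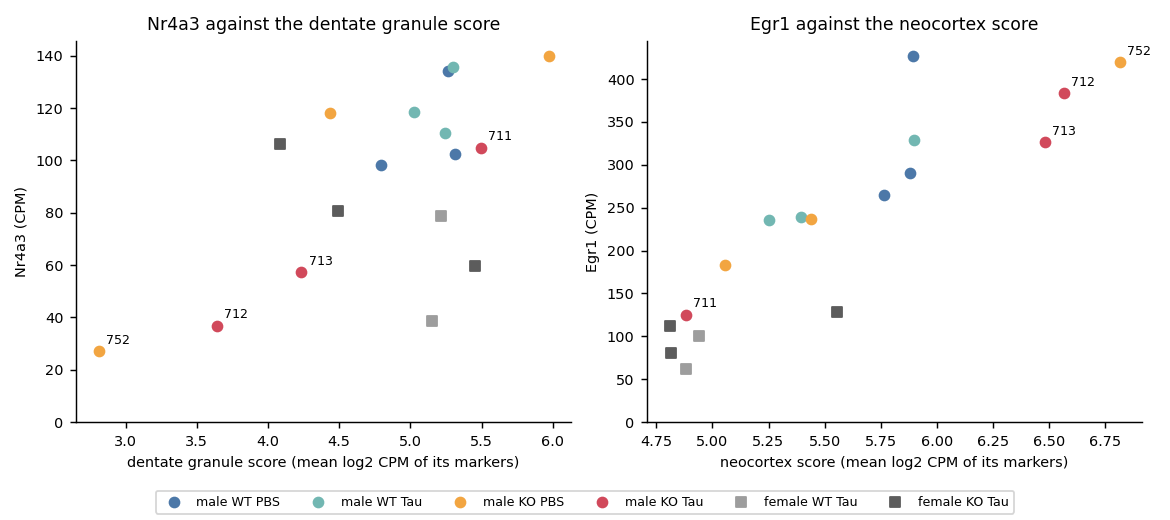
Left, Nr4a3 in CPM against the dentate granule score; right, Egr1 in CPM against the neocortex score (each score the mean log2 CPM of its markers). Points are the 17 libraries, circles male and squares female, coloured by group; libraries 752, 712 and 713 are the lowest male libraries for Nr4a3 (27.1 to 57.3 CPM) and have the highest neocortex scores (6.48 to 6.82).

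The genes whose profile over the 17 libraries was most like each member are given by Pearson r of log2 CPM among 15466 genes, a description in which the sex difference takes part. For Egr1 they were Kcnj11 (0.97), Smap2 (0.97) and Arhgap1 (0.96), and for Egr2 Fosb (0.95), Gadd45b (0.89) and Fos (0.88), which are themselves early-response genes. Egr3 had Vti1a (0.95), Ttll11 (0.94) and 4930429B21Rik (0.92), and Egr4 had Gpd1l (0.95), Ptprn2 (0.95) and Glyr1 (0.94). Nr4a1 was most like Midn (0.96), Nploc4 (0.94) and Cacna2d3 (0.94), Nr4a2 like Zfp90 (0.91), Pnma3 (0.90) and Rspo2 (0.89), and Nr4a3 like Neurod6, Cpne6 and Wbscr17 (0.96 each).

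Partners of the 2 families were described from 3 lists (the plot of lists by comparison). The cofactors were Nab1 and Nab2, corepressors of Egr proteins, and the retinoid X receptor genes Rxra, Rxrb and Rxrg, whose products pair with Nr4a1 and Nr4a2. In male KO Tau against WT PBS 0 of 5 were called, and their log2 fold changes ran from -1.07 for Rxrg (SE 0.70) to 0.045 for Rxrb (SE 0.072), with a median of -0.0099. Nab2, at -0.43 (SE 0.14), was the 1 cofactor at an unadjusted p under 0.05. Of 17 upstream factors (the CREB family and its coactivators, serum response factor and its partners, and Mef2 genes) 0 were called, from -0.23 for Mkl1, a serum response factor coactivator (SE 0.14), to 0.39 for Mef2c (SE 0.72), with a median of -0.021. Mef2c was at 105, 729 and 591 CPM in KO Tau libraries 711, 712 and 713 and between 343 and 375 CPM in WT PBS. Its value was -1.76 (SE 0.38) without libraries 752, 712 and 713, which leaves library 711 alone as KO Tau.

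Of 35 other activity-induced genes 0 were called in that comparison. At an unadjusted p under 0.05 by edgeR there were 14, against 6.33% of all genes and 1 of the 7 members. Of these 14, 4 had a higher and 10 a lower level in KO Tau. The list was chosen with earlier results of these data known, so this count cannot test for an excess. The extremes were Npas4, an activity-dependent transcription factor gene, at 1.78 (SE 0.42, edgeR FDR 0.783), and Sik1, a kinase gene that CREB induces, at -1.22 (SE 0.20, FDR 0.162). Without libraries 752, 712 and 713, which leaves library 711 alone as KO Tau, they were at 0.49 (SE 0.32) and -1.64 (SE 0.25). Npas4 was at 16.8, 71.4 and 37.0 CPM in KO Tau libraries 711, 712 and 713 and at 11.3, 13.3 and 12.1 CPM in WT PBS. Sik1 was between 5.74 and 9.54 CPM in the same KO Tau libraries and at 14.7, 19.9 and 20.1 CPM in WT PBS. For both genes the groups were thus apart, in opposite directions, where 14.4% of all genes were apart in either direction. Both were named because they were the extremes of the list. The list's median was -0.17, that of the 7 members -0.69. In female WT Tau against male WT Tau 28 of the 35 had a value below 0 (median -0.60, and -0.015 over all genes). Of the 35, 1 was called, Bdnf at -0.66 (SE 0.12, edgeR FDR 0.0481), beside 0.370% of all genes. At an unadjusted p under 0.05 there were 16, against 22.9% of all genes. In female KO Tau against male KO Tau 5 of 35 were called. Maff (1.85), Sik1 (0.96), Tiparp (0.91) and Ptgs2 (0.82) were higher in females and Ier5 (-0.91) lower, beside 6.33% of all genes. Over the whole list 22 of 35 were lower and 13 higher (median -0.11). Of the cofactors, Rxrb was called there, at -0.46 (SE 0.10, edgeR FDR 0.0353). Without libraries 712 and 713 male KO Tau is library 711 alone, so calls of these 6 genes from that fit are not given. Nab2, Bdnf, Rxrb, Maff, Sik1, Tiparp, Ptgs2 and Ier5 were chosen for naming after their values were seen.

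**Figure D5:**
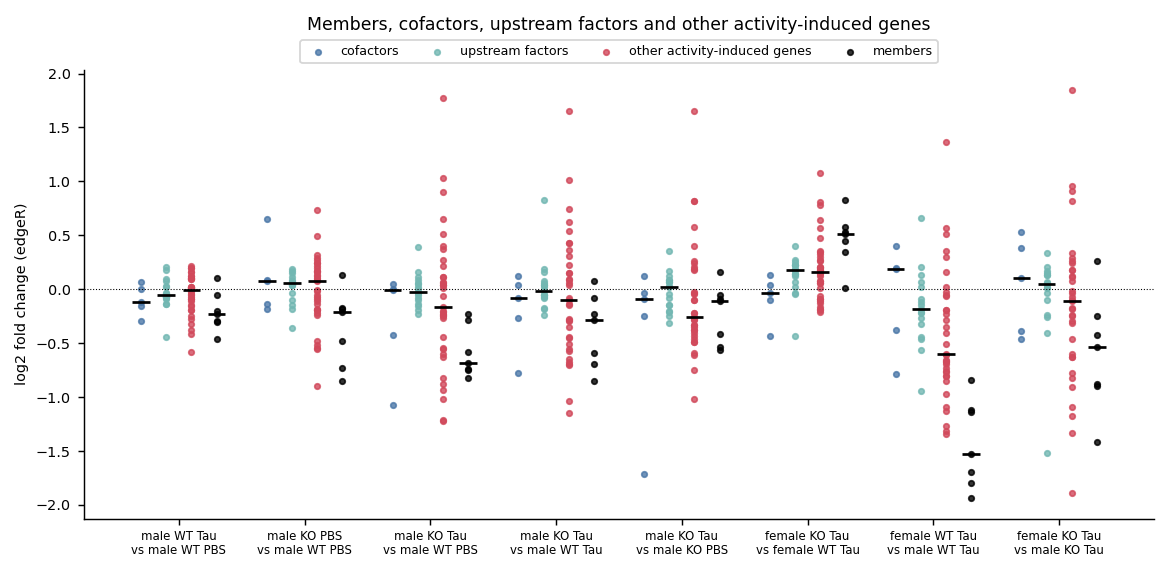
Log2 fold changes (vertical axis, edgeR) of the 5 cofactors, 17 upstream factors, 35 other activity-induced genes and the 7 members in the 8 pairwise comparisons (horizontal axis). Each point is a gene and the bar is the list's median; the members' median is -1.53 in female WT Tau against male WT Tau and 0.51 in female KO Tau against female WT Tau.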

How the data were processed

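Poly(A) RNA from dorsal hippocampus was sequenced in 17 libraries (NEBNext Ultra II). The authors aligned reads to GRCm38/mm10 with STAR 2.5.2, used SAMtools 1.1, and deposited raw gene counts made with HTSeq 0.9.1 over exons with reverse-stranded counting; the annotation release is not given in the sources used here. Totals of 14183131 to 22463635 counts set the precision of each value.

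Groups came from the labels. Genes were kept by filterByExpr (minimum count 10, total 15), scaled by TMM and tested with the edgeR 4.0.16 quasi-likelihood test, with Benjamini-Hochberg adjustment at an FDR of 0.05, in 1 fit of the 12 male libraries (15098 genes) and 1 of the 11 Tau libraries (15419 genes), for 12 comparisons. DESeq2 1.42.0, the tool of the study, limma 3.58.1 (voom with quality weights), other scalings and filters, other sets of libraries and leaving out each library were alternatives. The fit with a dentate granule score and the fits without libraries 752, 712 and 713 were added after the data were seen. So were the marker correlations and the correlations between members in the male libraries without these 3. Correlations used log2 CPM with a prior count of 2 and 100000 permutations, or all permutations with 9 libraries (scipy 1.17.1). The edgeR script was tested on simulated data. Gene positions and lengths came from GENCODE vM21, and promoters from RefSeq. Named genes were the 7 members, Acss2, the 3 genes most like each member and, from each partner list, for KO Tau against WT PBS males, the called genes or else the highest and the lowest. The members and lists were chosen with earlier results of these data known.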

Additional observations from a re-analysis of the deposited data

How the results depend on the processing

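No paired analysis was possible because the labels give every library a number of its own. Of 286 member counts under alternatives 245 stayed within 1.5 times the reported count and 41 moved. The reported count was 0 in every comparison but female KO Tau against male KO Tau. A count of 0 stayed only where the alternative also called 0. Of 1477 fold changes 1305 kept their direction and their side of the threshold, 76 newly passed it, 16 no longer did and 80 turned sign, 1 of them called. The cause of these changes was not tested. Counts and depth limit Egr2 most.

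For female WT Tau against male WT Tau, edgeR called 0 members (0.370% of genes), DESeq2 5 (5.56%), DESeq2 on the groups compared 6 (14.5%), voom 2 (3.84%), edgeR on all libraries 2 (3.78%), edgeR on the groups compared 5 (7.35%) and edgeR with the dentate granule covariate 3 (2.72%). For female KO Tau against male KO Tau, edgeR on the groups compared called 0 and the reported fit 1. Between members, 3 pairs passed over the male libraries and 6 after centring on group means.

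Without libraries 752, 712 and 713 the members called were 4 for male KO Tau against WT PBS, 2 against WT Tau, 1 against KO PBS, 1 for the Tau average, 2 for the KO average, 3 for female against male WT Tau and 0 for female against male KO Tau. Signs turned for Egr3 (-0.26) and Nr4a3 (0.25) in KO PBS against WT PBS, Egr1 in KO Tau against WT Tau (-1.06), Egr2 in KO Tau against KO PBS (-2.16), and Egr2 (1.38), Nr4a1 (0.055) and Nr4a3 (-0.40) in female against male KO Tau. With the dentate granule covariate they turned for Egr3 (-0.039) and Nr4a3 (0.12) in KO PBS against WT PBS, Egr1 in KO Tau against WT Tau (-0.38), Egr2 in KO Tau against KO PBS (-0.014), and Egr2 (-0.24), Egr4 (-0.078) and Nr4a2 (-0.096) in female KO against WT Tau. By voom they turned for Egr3 in KO PBS against WT PBS (-0.084), Egr1 in KO Tau against WT PBS (0.015), Egr3 in KO Tau against WT Tau (0.010), Egr1 (0.37) and Egr2 (-0.53) in KO Tau against KO PBS, and Nr4a2 in female KO against WT Tau (-0.025) and in female against male KO Tau (0.041).

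Leaving out 1 library at a time, by edgeR or by DESeq2 on the groups compared, gave 0 to 3 called members for male KO Tau against WT PBS, 0 to 2 against WT Tau, 0 to 7 for female against male WT Tau and 0 to 3 for female against male KO Tau. Beside these, DESeq2 called 7.30% of all genes without library 711 and 0.342% without 712 against WT PBS. Against WT Tau the shares were 9.25% and 0.0778%. Without library 711, edgeR called 7.95% of genes for female against male WT Tau and 32.1% for female against male KO Tau. Shares of the other such fits, among them those with 7 called members, are not given here. The counts are therefore no result about the members alone. In male WT Tau against WT PBS, Egr2 ranged from -1.06 to 0.051, Egr3 from -0.37 to 0.098 and Nr4a1 from -0.16 to 0.15. In KO PBS against WT PBS, Egr1 ranged from -0.59 to 0.081, Egr3 from -0.25 to 0.43 and Nr4a3 from -0.59 to 0.26. In KO Tau against WT PBS, Egr1 ranged from -0.52 to 0.12 and Egr3 from -0.43 to 0.018. In KO Tau against WT Tau, Egr1 ranged from -0.22 to 0.42, Egr2 from -1.82 to 0.38 and Egr3 from -0.17 to 0.098. In KO Tau against KO PBS, Egr1 ranged from -0.36 to 0.36, Egr2 from -1.43 to 0.63, Egr4 from -0.47 to 0.13 and Nr4a2 from -0.52 to 0.34. In female KO against WT Tau, Egr4 ranged from -0.068 to 0.97 and Nr4a2 from -0.15 to 0.10, and in female against male KO Tau Egr2 ranged from -1.34 to 0.74 and Nr4a3 from -0.024 to 0.79.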
